A study of Mus musculus with 6 samples.

Results

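Wide wild-type-only regions at gene ends are stretches of the mouse genome of at least 2000 bp that were called as enriched for nucleosome-sized DNA in every wild-type sperm library and were not called in any library from protamine 1 mutant sperm. The enriched intervals (peaks) of 6 libraries were merged where they overlapped or touched. A merged region was kept if it overlapped a peak in all 4 wild-type lists and in neither mutant list, was 2000 bp or wider, and reached by at least 1 bp into a window of 1 kb either side of an annotated start or end of a protein-coding gene. Of 44743 merged regions, 415 met this rule, which is 0.928%. An end of 461 of 21887 protein-coding genes (2.11%) lay within 1 kb of one of these regions. Because the rule itself asked for a call in every wild-type list and in no mutant list, that pattern is how the regions were chosen and is not a result about them.

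The libraries came from sperm of the mouse epididymis and vas deferens, 4 from wild-type C57BL6 mice (WT 1 to WT 4) and 2 from mice with the K49A form of protamine 1, in which alanine takes the place of a lysine (K49A 1 and K49A 2). For the mutant mice the strain, and for all mice the age and the number behind each library, were not given. Sperm of both genotypes were treated with DNase I, permeabilised and decondensed with DTT. They were then digested with micrococcal nuclease (MNase), in a round with 5 units and then a round with 15 units. DNA of the size of 1 nucleosome was cut from a gel. The MNase amounts were the same for every library. The number of sperm was given per genotype and not per library. The series describes the libraries as biological replicates.

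When sperm form, protamines replace most histones and pack the DNA tightly. Some nucleosomes stay, and in mouse sperm they are known to be found at CpG-rich promoters, among them promoters of genes that control embryonic development. MNase cuts exposed DNA and leaves DNA wrapped around a nucleosome, so a broad enriched region describes a stretch over which nucleosome-sized fragments were recovered more often than in the background.

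The sequences of the regions themselves were not available, and the median region had 78.2% of its width on the gene side of the gene end. Printed here instead are promoter sequences at 6 of the widest regions. Each is the run of 250 bases just upstream of a start listed for the gene, within 50 bp of its annotated start, from RefSeq (build GRCm38.p6, the assembly that mm10 names), written 5′ to 3′ on the gene's own strand, with every CpG in capitals. Cyp1b1 (chr17:79715062-79715311, minus strand) encodes a cytochrome P450 enzyme and lay at the widest region. Ihh (chr1:74951673-74951922, minus strand) encodes the ligand Indian hedgehog, Efna3 (chr3:89322940-89323189, minus strand) an ephrin that acts in axon guidance, and Wnt1 (chr15:98789607-98789856, plus strand) a Wnt ligand. Myb (chr10:21160985-21161234, minus strand) encodes a transcription factor of blood progenitors, and Smad6 (chr9:64022060-64022309, minus strand) an inhibitor of BMP signalling. The last 26 bases of the Smad6 run lie inside the gene as annotated.
Cyp1b1: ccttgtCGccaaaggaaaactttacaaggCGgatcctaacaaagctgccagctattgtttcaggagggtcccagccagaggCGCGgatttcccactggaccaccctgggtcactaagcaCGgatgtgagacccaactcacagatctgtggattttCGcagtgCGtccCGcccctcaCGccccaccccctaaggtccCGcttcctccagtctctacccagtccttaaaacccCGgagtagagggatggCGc
Ihh: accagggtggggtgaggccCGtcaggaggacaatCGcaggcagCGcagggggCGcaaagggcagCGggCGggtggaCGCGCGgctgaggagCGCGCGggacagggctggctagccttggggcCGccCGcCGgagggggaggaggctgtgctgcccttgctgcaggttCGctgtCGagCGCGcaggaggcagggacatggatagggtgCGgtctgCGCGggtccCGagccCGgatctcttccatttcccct
Efna3: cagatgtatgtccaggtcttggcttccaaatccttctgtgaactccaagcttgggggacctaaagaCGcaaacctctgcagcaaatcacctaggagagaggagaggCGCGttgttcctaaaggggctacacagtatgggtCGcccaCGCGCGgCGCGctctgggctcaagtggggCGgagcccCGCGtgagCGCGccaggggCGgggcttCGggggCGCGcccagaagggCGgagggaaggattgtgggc
Wnt1: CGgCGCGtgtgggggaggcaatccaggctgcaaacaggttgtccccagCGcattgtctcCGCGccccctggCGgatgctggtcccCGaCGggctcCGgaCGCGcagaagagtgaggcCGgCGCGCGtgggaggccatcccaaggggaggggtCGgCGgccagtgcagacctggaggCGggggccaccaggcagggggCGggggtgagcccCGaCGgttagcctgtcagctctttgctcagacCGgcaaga
Myb: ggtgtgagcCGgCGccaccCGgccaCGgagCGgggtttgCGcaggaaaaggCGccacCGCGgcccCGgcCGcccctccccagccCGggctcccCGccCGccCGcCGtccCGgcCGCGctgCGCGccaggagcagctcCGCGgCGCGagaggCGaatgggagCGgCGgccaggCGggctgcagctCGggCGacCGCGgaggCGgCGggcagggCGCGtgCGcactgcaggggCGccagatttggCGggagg
Smad6: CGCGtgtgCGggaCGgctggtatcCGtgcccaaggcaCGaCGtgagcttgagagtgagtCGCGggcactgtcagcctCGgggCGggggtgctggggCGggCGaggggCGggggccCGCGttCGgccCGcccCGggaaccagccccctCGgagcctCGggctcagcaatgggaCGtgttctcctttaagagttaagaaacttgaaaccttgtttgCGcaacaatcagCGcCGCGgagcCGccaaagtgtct
These 6 promoters held 12, 24, 19, 23, 40 and 27 CpGs, in the order printed. All 6 contained the letters GGGCGG (the core of the GC box, searched on both strands), which 42.6% of the 21263 promoters in the sequence table contain in the same 250 bases.

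The range of promoters at these regions was wide. The next pair was chosen by the CpG observed-to-expected ratio, which sets the number of CpGs against that given by the C and G content. Pdzrn4 (chr15:92396560-92396809, plus strand), a gene for a PDZ and RING finger domain protein, had the lowest ratio of all, and Atp2b1 (chr10:98914392-98914641, plus strand), the gene of a plasma membrane calcium pump, was among the 3 highest. The last 12 bases of the Atp2b1 run lie inside the gene as annotated.
Pdzrn4: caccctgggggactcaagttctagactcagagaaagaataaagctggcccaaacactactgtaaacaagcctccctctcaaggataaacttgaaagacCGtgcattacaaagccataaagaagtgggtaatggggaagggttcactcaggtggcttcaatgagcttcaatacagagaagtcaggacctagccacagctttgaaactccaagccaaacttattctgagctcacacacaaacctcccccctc
Atp2b1: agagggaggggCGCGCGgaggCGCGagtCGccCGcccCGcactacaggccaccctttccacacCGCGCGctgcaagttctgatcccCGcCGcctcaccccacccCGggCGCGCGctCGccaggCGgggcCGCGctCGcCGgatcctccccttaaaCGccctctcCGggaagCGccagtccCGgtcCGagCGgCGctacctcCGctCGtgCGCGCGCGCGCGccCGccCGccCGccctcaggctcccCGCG
The Pdzrn4 sequence has 1 CpG and the Atp2b1 sequence 43. For 190 genes (41.2% of the 461) the table held a promoter that overlapped the region and lay within 50 bp of the annotated start. Across these, the number of CpGs in 250 bases ran from 1 to 46 with a median of 17.5 (quartiles 11 and 23). Their median GC content was 63.2%. The letters GGGCGG were in 126 of these 190 promoters (66.3%), beside 42.6% of all promoters in the table. The sets are unlike. The 190 were kept for overlapping a region and lying within 50 bp of the annotated start, and the full table had no such filter. GGGCGG was 1 of 9 motifs counted, and no test was made. CCAAT was in 37.4% (35.4% of all promoters), TATAAA in 11.6% (11.6%) and CACGTG in 6.32% (6.63%). TGACGTCA was in 4.74% (1.92%) and CCGGAAGT in 2.11% (3.79%). The table had a promoter for too few of the 461 genes, 348 (75.5%), to compare their composition with that of other genes.

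The lists differed greatly in length, and this bears on every value that follows. WT 1 to WT 4 held 11313, 20458, 22237 and 27903 peaks, and K49A 1 and K49A 2 held 700 and 1017. The WT lists went down to a −log10 p of between 3.32 and 3.75, whereas K49A 1 stopped at 4.73 and K49A 2 at 4.55, so a peak had to be stronger to appear in a K49A list. No read counts were used and the depth of the libraries is unknown. Of all merged regions, 6161 (13.8%) were called in all 4 WT and no K49A list. Among those of 2000 bp or wider the number was 578 of 794 (72.8%), and among those at a gene end of any width 4434 of 13229 (33.5%).

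Among the 521 merged regions at gene ends that were 2000 bp or wider, 415 (79.7%) had the full pattern. A further 76 were called in 3 WT lists and no K49A list, 6 in 2 WT lists and no K49A list, 18 in all 4 WT and 1 K49A list, 4 in all 6 lists, and 2 in 3 WT and 1 K49A list. Width ran from 2000 to 3459 bp with a median of 2237 bp (quartiles 2113 and 2433), and the 415 regions together covered 0.957 Mb. Most were close to the width limit. Just inside it lay Plpp3 and Nt5c1a at 2001 bp and Gja1, Cbll1 and Bcl7a at 2000 bp. Just outside lay Zcchc2 at 1997 bp, Caskin2 with Tsen54 and Arhgef5 at 1996 bp, and Ripply3 and St6galnac5 at 1995 bp. The mean over the 4 WT lists of the strongest peak's fold was 2.73 to 3.00 in the 5 inside and 2.92 to 3.28 in the 5 outside.

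The width is that of all 6 lists merged, and single peaks of that width were few. The strongest peak at a region reached 2000 bp in WT 1 at 5 regions, in WT 2 at 93, in WT 3 at 119 and in WT 4 at 30. Of the 830 region borders, 292 (35.2%) were set by a WT 2 peak and 290 (34.9%) by a WT 3 peak, against 79 (9.52%) by WT 1 and 175 (21.1%) by WT 4. The number of regions rested on those same libraries. It fell to 239 without WT 2 and to 250 without WT 3, and was 451 without WT 1 and 334 without WT 4. Stronger limits on the peaks moved it further. When only peaks that reached a −log10 p of 5 were kept, 116 regions met the rule, and with every list cut to its 700 strongest peaks 1 did.

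Cyp1b1 lay at the widest region (3459 bp, chromosome 17, 79713112 to 79716570). The fold enrichment of its strongest peak, a value over background that here as elsewhere comes from the authors' list, was 2.61 in WT 1, 2.34 in WT 2, 2.59 in WT 3 and 2.37 in WT 4 (2.48 ± 0.141 SD, n = 4). Peaks of those lists covered 51.7, 67.9, 59.9 and 50.8% of the region. The 4 libraries were close in both measures, although 3 of them split the region into 2 peaks, and 23.9% of its bases were inside a peak of all 4.

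Nptx1, the gene of a secreted pentraxin of synapses, followed at 3453 bp (chromosome 11, 119546598 to 119550050). Its folds in WT 1 to WT 4 were 2.84, 2.81, 2.52 and 2.47. They fell into a higher pair and a lower pair of libraries. The Ihh region (3394 bp, chromosome 1, 74948582 to 74951975) had folds of 3.07, 2.39, 2.39 and 2.55, with 27.2, 98.8, 47.6 and 38.8% of it covered. WT 1 was thus the highest in fold and the lowest in cover at Ihh, and WT 2 alone nearly filled the region.

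Efna3 (3310 bp, chromosome 3, 89319677 to 89322986) had the same order for WT 1, with folds of 3.03, 2.55, 2.51 and 2.37 and with 17.8, 65.5, 51.4 and 33.2% covered. At Epas1 (3245 bp, chromosome 17, 86753044 to 86756288), which encodes the hypoxia-inducible factor HIF-2 alpha, the folds were 2.95, 2.57, 2.45 and 2.70. The Arid1b region, at a gene for a subunit of the BAF chromatin remodelling complex (3240 bp, chromosome 17, 4993986 to 4997225), had folds of 3.94, 2.93, 2.97 and 2.94. There WT 1 stood apart and the other 3 libraries were alike.

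Wnt1 (3040 bp, chromosome 15, 98789673 to 98792712) had folds of 3.01, 2.42, 2.35 and 2.43 in WT 1 to WT 4, with 33.7, 89.5, 95.4 and 33.1% covered. WT 2 and WT 3 filled nearly the whole region with 1 peak each, whereas WT 1 and WT 4 each had 2 separate peaks in it. Only 6.68% of its bases were inside a peak of all 4 libraries. Zfp521, a zinc finger gene on chromosome 18 (3011 bp), was the only one of the 10 widest regions that was also among the 10 with the highest fold, with 3.84, 3.98, 4.02 and 3.18.

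Apoe, which encodes the lipid carrier apolipoprotein E (3011 bp, chromosome 7, 19696546 to 19699556), had folds of 2.75, 2.51, 2.42 and 2.59. Its region lay inside the gene. It began 302 bp from the finish, within the window around that end, and did not enter the window around the start. The region overlapped another promoter of the sequence table. Myb (3005 bp, chromosome 10, 21158449 to 21161453) had folds of 2.88, 2.91, 2.42 and 3.54, and WT 4 was the highest there.

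**Figure D1:**
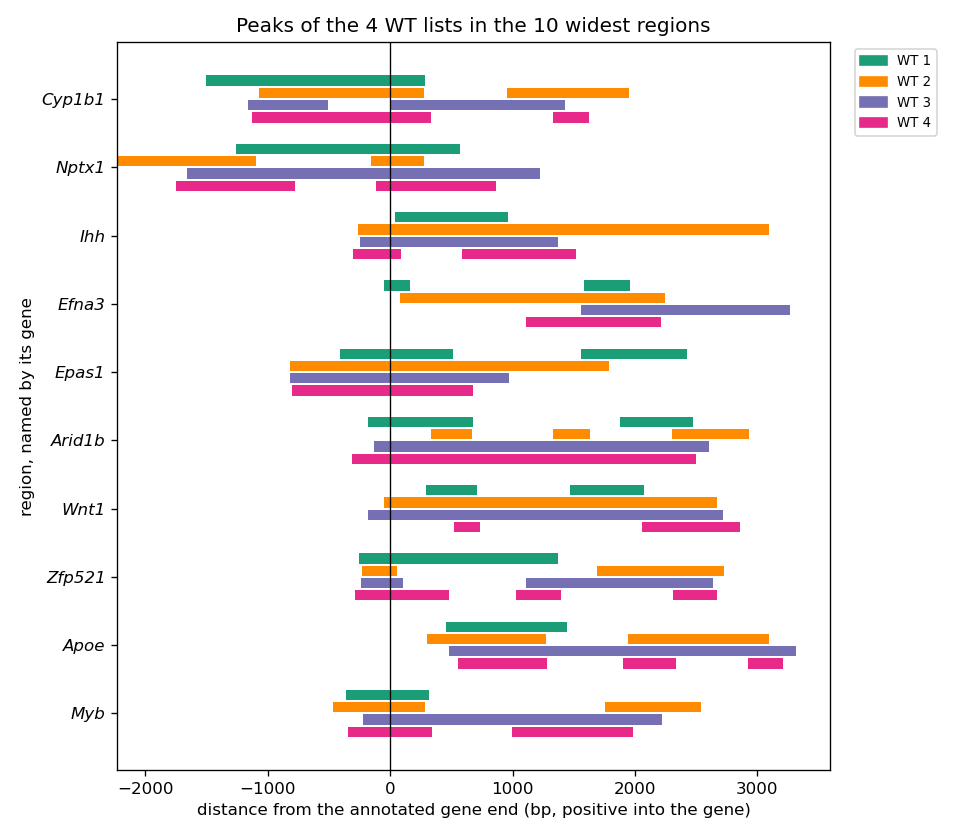
Peaks of each library at the 10 widest regions, drawn by distance from the nearest annotated gene end in bp (x axis, positive into the gene), with 1 row of bars per WT library for each region. The regions are pieced together from peaks of different extent, with long WT 2 and WT 3 peaks at Wnt1 and shorter ones in WT 1 and WT 4.

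Over all 415 regions the WT libraries differed more in cover than in fold. The median fold of the strongest peak was 3.09 in WT 1, 2.77 in WT 2, 2.78 in WT 3 and 2.87 in WT 4 (2.88 ± 0.146 SD, n = 4). The median share of a region covered by peaks was 36.6, 72.8, 74.2 and 55.9% in the same order (59.9 ± 17.6% SD, n = 4). WT 1, the shortest WT list, had the highest median fold and the lowest median cover. At least 1 base was inside a peak of all 4 libraries in 370 regions (89.2%), and the median share of bases inside a peak of all 4 was 20.1%. At Atoh1 and Sox8, both genes of developmental transcription factors, that share was 0%, so the 4 WT lists called different stretches there.

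These folds were lower than those of the 4019 narrower regions at gene ends with the same calls. The narrower regions had median folds of 3.30, 3.03, 3.10 and 3.16 in WT 1 to WT 4 (3.15 ± 0.115 SD, n = 4), above those of the wide regions in each of the 4 libraries. The same held for the median −log10 p of the strongest peak, which was 5.45, 5.31, 5.46 and 5.81 at the wide regions and 5.56, 5.39, 5.76 and 6.40 at the narrower ones. The calls that chose both sets came from these same peaks, so the values are a description without a test. A region was made of 1 peak in 88.9, 85.8, 83.9 and 84.3% of cases in WT 1 to WT 4, against 99.0, 99.1, 98.3 and 98.3% of the narrower ones.

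**Figure D2:**
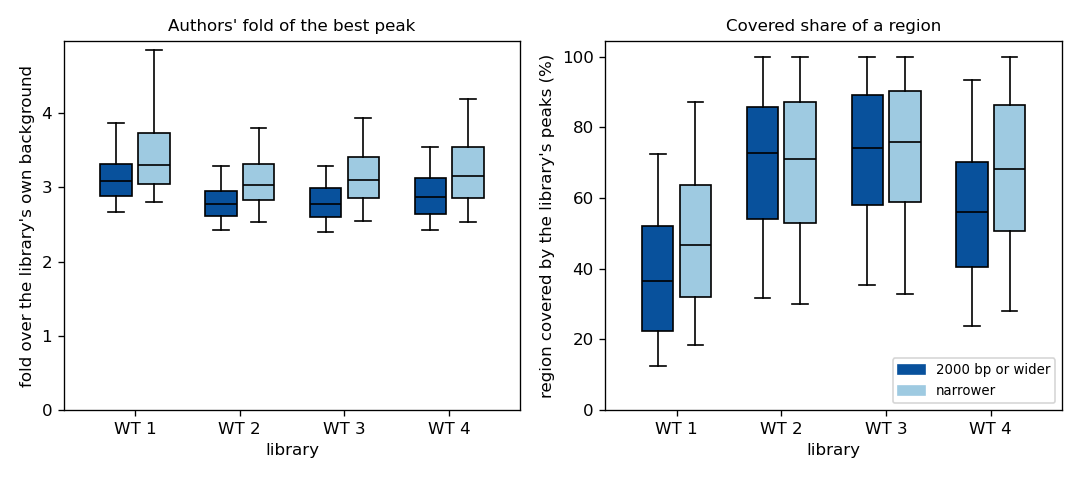
Fold of the strongest peak (ratio) and covered share of the region (%) in each WT library, for the 415 wide regions and the 4019 narrower ones, with boxes from the lower to the upper quartile, a line at the median and whiskers from the 5th to the 95th percentile. Median folds of the wide regions were 2.77 to 3.09 and those of the narrower ones 3.03 to 3.30.

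The 10 regions with the highest mean fold were mostly of moderate width. The highest was a region of 2102 bp at Ptgfrn, which encodes a membrane protein that binds the prostaglandin F receptor, and the predicted gene Gm52612. Its folds were 5.88 in WT 1, 3.20 in WT 2, 3.67 in WT 3 and 3.78 in WT 4 (4.13 ± 1.19 SD, n = 4), and the mean was raised by WT 1. Creb1, the gene of a cyclic AMP responsive transcription factor, had 5.40, 3.61, 3.12 and 2.94 (3.77 ± 1.12 SD, n = 4). WT 1 was again the highest. The others were Zfp521 (mean 3.76), Dnajc21 (3.65), Rnf165 (3.63), Bnip2 with Gtf2a2 (3.60), Elk4 (3.57), Lrch1 (3.56), Hmgb1 (3.50) and Upp2 with Acvr1 (3.49). Hmgb1 encodes an abundant chromatin protein, and its region was the most fully shared of these 10, with 58.9% of its bases inside a peak of all 4 libraries.

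Most of the regions lay over a gene start and extended into the gene. The gene end nearest to the region was spanned in 338 cases (81.4%), and the midpoint lay inside the gene in 347 (83.6%). The median region began 494 bp outside the gene end and ran to 1744 bp inside it, with its midpoint 640 bp inside (quartiles 227 and 1033). The median share of the width on the gene side was 78.2%, and it was 78.1% in the narrower regions, whose median midpoint was 313 bp inside. The strand of every gene concerned was known for 303 regions (73.0%). Of these, 294 came within 1 kb of a gene start, 267 of them with no finish that near.

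Cover was highest a short way into the gene in all 4 WT libraries. In WT 1 it reached 53.0% of regions at 400 bp inside, in WT 2 74.2% at 600 bp, in WT 3 76.6% at 500 bp and in WT 4 74.7% at 400 bp. It was lopsided. At 1000 bp outside the gene, peaks of WT 1 to WT 4 covered 4.34, 14.2, 11.8 and 5.30% of regions, whereas at 1000 bp inside they covered 39.0, 66.0, 67.2 and 52.5%.

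**Figure D3:**
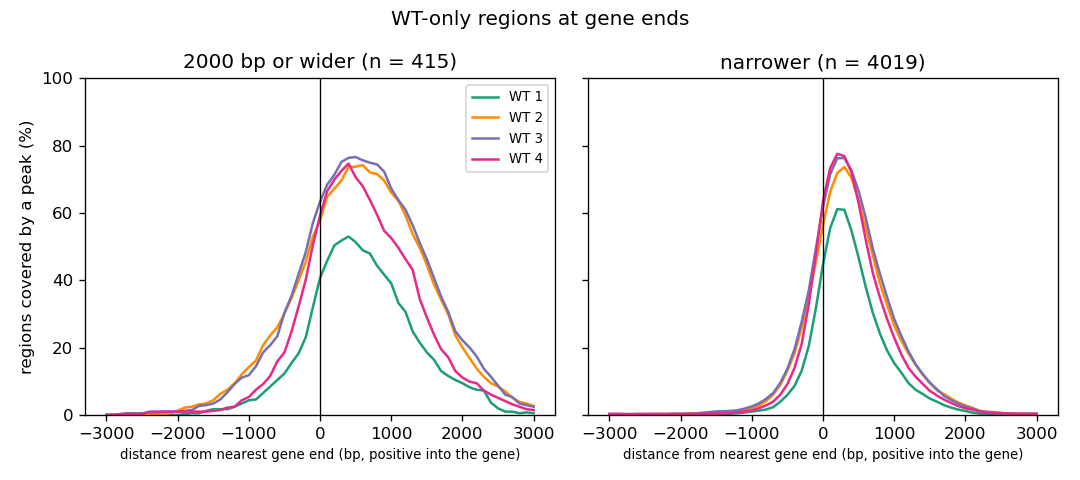
Share of regions covered by a peak of each WT library (y axis, %) by distance from the nearest annotated gene end (x axis, bp, positive into the gene), with the 415 wide regions in the left panel and the 4019 narrower ones in the right. In the left panel every WT curve peaks between 400 and 600 bp inside the gene, at 53.0% in WT 1 and at 74.2 to 76.6% in the others.

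The genes were long. Those at the wide regions had a median length of 40.2 kb (quartiles 9.04 and 121 kb), against 33.9 kb at the narrower regions and 17.2 kb over all protein-coding genes. Yet 26 regions (6.27%) came within 1 kb of both ends of 1 gene, against 2.66% of the narrower ones. A wider region comes within 1 kb of both ends more easily, so the width rule itself bears on this contrast. Such regions lay at Twist1, Bhlhe23, Klf2 and Nkx2-9, each a compact transcription factor gene. Within 1 kb of 369 regions there were ends of a single gene, and within 1 kb of 46 there were ends of 2 genes. The 5 with most gene ends had 3 each within 1 kb. They lay at Trim28 with Gm31649, Arl1 with Gm4925, Kdm2a with 9430078G10Rik, Slc16a11 with Slc16a13, and Ptgfrn with Gm52612.

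A finish without a start lay within 1 kb of 9 of the 303 regions with known strand, and these are named after their values were seen. At Apoe, Cartpt and Tmem191c the region overlapped another promoter of the sequence table. At Vsig8, Sost, Tank, Artn, Bcl3 and Zfp30 it overlapped none. Sost and Artn encode secreted proteins, the Wnt antagonist sclerostin and a ligand of the GDNF family.

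A start or end of a long noncoding RNA gene also lay at 82 regions (19.8%), against 15.3% of the narrower regions. A wider region comes near a gene end more easily, so the width rule itself bears on this contrast too. These noncoding genes lay beside, among others, Nptx1, Efna3, Zfp521, Eomes and Egr2. A start or end of a microRNA gene lay at 4 regions (0.964%, against 1.05% of the narrower ones), Mir378a at Ppargc1b, Mir5130 at Kctd12, Mir3081 at Boc and Mir1199 at Misp3. Every autosome held some of the regions. Chromosome 2 held 36 (8.67% of the regions, with 8.14% of the protein-coding genes) and chromosome 18 held 19 (4.58%, with 2.33% of the genes). Chromosomes 8 and 19 held 11 each (2.65%, with 4.77 and 3.22% of the genes). The X chromosome has 4.41% of the protein-coding genes and held none of the 415 and 11 of the 4019 narrower regions. The regions stood apart from each other. No pair was within 10 kb and 5 pairs were within 100 kb, the closest being Vwa5b2 and Camk2n2 with a gap of 28124 bp.

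Genes of developmental regulators were frequent at these regions, and most such lists were also above all genes at the narrower ones. The gene lists that follow were made from gene symbols, with earlier results of these data known, and the counts are descriptions to be read beside the 2.11% of all protein-coding genes that lay at a wide region and the 20.4% that lay at a narrower one. A gene counts whether its start or its finish lay at the region. At a narrower region alone lay 36.2% of Wnt to Notch genes and 33.3% of Sox to forkhead genes. The share was 29.1% for basic helix-loop-helix and nuclear receptor genes, 29.0% for homeobox genes and 28.2% for axon guidance genes. Klf, Sp, Egr and Zic genes went the other way, with 8.57%.

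Among Klf, Sp, Egr and Zic genes, which encode zinc finger transcription factors, 7 of 35 (20%) lay at a wide region and 3 more at a narrower one alone. The 7 were Zic5, Egr2, Klf2, Klf13, Klf7, Sp3 and Sp9. Zic5, a regulator of neural crest and forebrain development, had folds of 2.76, 2.20, 2.25 and 2.42 in WT 1 to WT 4 over a region of 2737 bp. Egr2, a regulator of hindbrain and Schwann cell development, had 2.77, 2.31, 2.38 and 2.28 over 2572 bp, with 7.78, 56.3, 84.8 and 33.8% covered. WT 1 was the highest in fold at both genes, and at Egr2 it covered the least. Klf2, a regulator of blood vessels and T cells, had 3.11, 2.74, 2.58 and 2.67 over 2418 bp.

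Axon guidance and ephrin genes came next, with 10 of 71 (14.1%) at a wide region and 20 at a narrower one alone. They were Efna3, Ntn1, Epha2, Sema3d, Sema5a, Epha5, Epha7, Plxna4, Plxnc1 and Ephb2. Ntn1 encodes netrin 1, a secreted guidance cue, and had folds of 2.91, 2.51, 2.79 and 2.73 over 2722 bp. Epha2 encodes an ephrin receptor and had 3.07, 2.86, 2.63 and 2.34 over 2517 bp, with 37.7, 28.3, 99.2 and 10.9% covered. WT 3 alone nearly filled the Epha2 region, and 0.0795% of its bases were inside a peak of all 4 libraries.

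Among Sox, T-box, Pax, Gata and forkhead genes the count was 11 of 93 (11.8%), with 31 at a narrower region alone. They included Eomes, Sox8, Pax8, Foxp1, Foxq1, Sox11, Foxi2, Tbx5, Gata5 and Foxo1. Eomes, a T-box factor of early embryos and of the developing cortex, had folds of 3.10, 2.48, 2.34 and 2.67 over 2676 bp. Sox8, a relative of Sox9, had 2.70, 2.76, 2.67 and 2.66 over 2348 bp. The 4 libraries were alike in fold there, but no base was inside a peak of all 4. These folds thus do not all describe the same stretch.

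Wnt, TGF-beta, FGF, Hedgehog and Notch genes had 16 of 188 (8.51%) at a wide region and 68 at a narrower one alone. Ligands were Ihh, Wnt1, Wnt2, Wnt9a, Fgf14, Fgf18, Fgf20 and Nodal, where the FGF14 protein is a relative that is not secreted. Receptors were Fzd2, Fzd8, Acvr1 and Notch1. Secreted inhibitors were Nog and Dkk1, and intracellular members were Smad6 and Tcf7l2. Smad6 had folds of 3.01, 2.37, 2.47 and 2.37 over 2961 bp, and WT 1 was again the highest. Fzd8, a Frizzled receptor for Wnt ligands on chromosome 18, had 3.17, 2.90, 2.55 and 3.04 over 2595 bp.

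These 4 lists depended on the same libraries as the number of regions. Without WT 2 they had 6, 7, 7 and 9 genes at wide regions in the order given above, and without WT 3 they had 5, 5, 7 and 10, while the share of all protein-coding genes went from 2.11% to 1.22% and 1.27%. From peaks that reached a −log10 p of 5 they had 2, 3, 2 and 4 genes, beside 0.562% of all protein-coding genes.

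Homeobox genes, which pattern the body axis and organs, had 9 of 169 (5.33%) at a wide region, and 49 at a narrower one alone. The 3 at the widest regions were Six4, whose region of 2819 bp also holds a start of Mnat1, Nkx2-9 (2507 bp) and Pou3f1 (2348 bp). Hoxb9 was the only Hox gene among the 9. Basic helix-loop-helix and nuclear receptor genes had 5 of 86 (5.81%), namely Atoh1, Twist1, Bhlhe23, Olig1 and Twist2. Atoh1, which drives the formation of cerebellar granule cells and hair cells, had folds of 2.97, 2.51, 2.48 and 2.72.

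Twist1 and Twist2, paralogous regulators of mesoderm and bone, were both at wide regions. Twist1 had 3.03, 2.71, 2.77 and 3.00 over 2211 bp, and Twist2 had 2.90, 2.95, 2.63 and 3.56 over 2009 bp. The order of the libraries was not the same at both genes, since WT 1 was the highest at Twist1 and WT 4 at Twist2.

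At wide regions, most other lists were nearer to the 2.11% of all protein-coding genes. At narrower regions alone most of those named next stood above the 20.4% of all genes. The shares there were 43.4% for kinase, 35.8% for chromatin, 34.6% for ubiquitin and 32.8% for ion channel genes. Splicing and RNA-binding genes had 29.1% there, and genes with a Zfp symbol 19.1%. Chromatin genes had 6 of 173 (3.47%), led by Arid1b, Cbx3, which encodes a heterochromatin protein, and Ino80, which encodes a remodelling ATPase. Splicing and RNA-binding genes had 5 of 189 (2.65%), and the ubiquitin list 7 of 355 (1.97%), led by Trim8. The kinase list had 6 of 173 (3.47%), and its widest, Camk2n2, encodes an inhibitor of CaM kinase that was caught by its symbol. Ion channel genes had 4 of 134 (2.99%), led by the potassium channel gene Kcnk3. Genes with a Zfp symbol had 10 of 429 (2.33%), led by Zfp521, Zfp575 and Zfp664.

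Germ cell genes were not far from the share of all protein-coding genes at wide regions. Spermatid and sperm genes, which mark the labelled cell type, had 2 of 160 (1.25%), Crem and Tex50, and 13.1% at a narrower region alone. The list of meiotic and germ line stem cell genes had 1 of 54 (1.85%), Zbtb16, and 22.2% at a narrower region alone, where all protein-coding genes had 20.4%. Of markers of other cells that a sperm sample could hold, 1 of 100 epididymal epithelium genes (1%), Pax8, and 0 of 41 leukocyte genes lay at a wide region, and 5% and 9.76% at a narrower one alone. Counts of 0 and 1 in lists of this size are near the 2.11% of all protein-coding genes. These are counts of chromatin regions, which do not show whether a gene is expressed. Imprinted genes had 1 of 49 (2.04%), Slc38a4, and cytosolic ribosomal protein genes 1 of 83 (1.20%), Rps20. At a narrower region alone they had 40.8% and 18.1%. Mitochondrial ribosomal protein genes had 0 of 78 and olfactory and vomeronasal receptor genes 0 of 1460. In all, 103 of the 461 genes were in at least 1 of the 21 lists and 358 were in none.

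**Figure D4:**
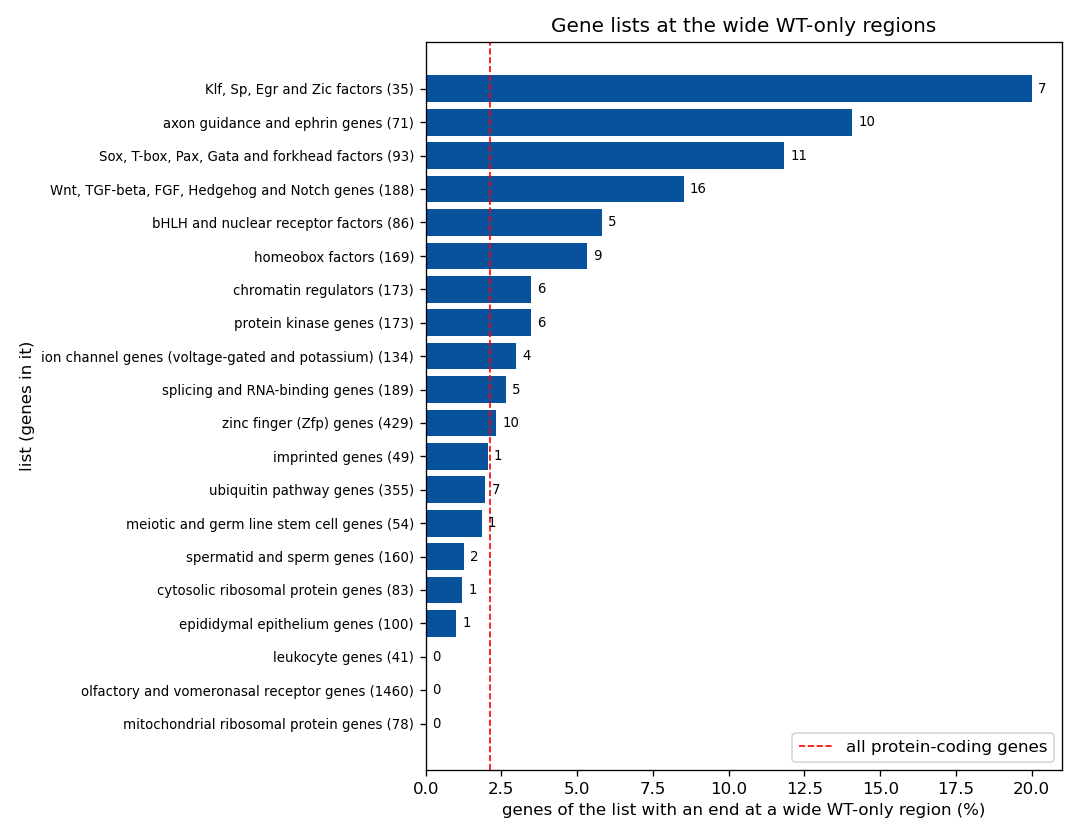
Share of 20 gene lists (x axis, %) with a gene end at one of the 415 wide regions, with the number of such genes beside each bar and a dashed line at the 2.11% of all protein-coding genes. The bars for Klf, Sp, Egr and Zic (20%), axon guidance (14.1%) and Sox, T-box, Pax, Gata and forkhead genes (11.8%) are the longest.

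The rule left no K49A peak inside a wide region. The median distance to the nearest one was 1595 kb in K49A 1 and 1214 kb in K49A 2, and from the narrower regions it was 1597 and 1224 kb, much the same. Within 10 kb there was a peak of K49A 1 at 0 of the 415 regions and of K49A 2 at 3. Among the 4019 narrower regions the numbers were 19 and 18, so such peaks were rare near both sets. The 3 wide regions are named after their values were seen. They were Olig1 (3883 bp away), the region of Col4a1 and Col4a2 (5061 bp), which encode basement membrane collagens, and Eomes (7057 bp). The K49A lists are short, and their higher limits touch this comparison. At 188 regions (45.3%) the strongest peak of every WT library reached the lowest −log10 p of both K49A lists, and among the narrower regions this share was 43.9%. At the other regions the strongest peak of at least 1 WT library was below the limit of at least 1 K49A list.

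Whether wide regions would be found again in a library that had no part in choosing them was measured by leaving out 1 list, applying the rule to the other 5, and looking in the list left out. In WT 1, 384 of 451 such regions (85.1%, exact (Clopper-Pearson) 95% binomial interval 81.5 to 88.3%) were called. In WT 2 it was 238 of 239 (99.6%), in WT 3 248 of 250 (99.2%) and in WT 4 328 of 334 (98.2%). Nearly every region was thus found in 3 WT libraries and fewer in WT 1, the shortest WT list. In K49A 1 the number was 13 of 428 (3.04%, interval 1.63 to 5.14%) and in K49A 2 it was 3 of 418 (0.718%, interval 0.148 to 2.08%). These intervals cover counting error only.

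The WT libraries averaged 95.5 ± 6.95% (SD, n = 4) and the K49A libraries 1.88 ± 1.64% (SD, n = 2), a difference of 93.7 ± 3.66 percentage points (SE). All 4 WT libraries were above both K49A libraries (exact permutation test over 15 splits, two-sided p = 0.133, the smallest that 4 against 2 libraries can give). This test cannot decide whether the genotypes differ. The regions were chosen by the genotype labels of the other lists, and were not chosen again when the labels were permuted. The difference between WT and K49A was much smaller when the list left out was shortened. Shortening kept the strongest peaks, so list length and peak strength changed together. What set the size of the difference was not tested. When the list left out was cut to its 700 strongest peaks, the length of the shortest list, the shares were 2.88, 3.77, 3.60 and 1.50% in WT 1 to WT 4 and 3.04 and 0.239% in the K49A libraries, a difference of 1.30 percentage points (exact permutation test, two-sided p = 0.4). The genotypes overlapped at that length, and the same limit on the test holds there. Few wide regions thus held any of the 700 strongest peaks of a WT list. Whether the K49A libraries hold weaker enrichment at these regions was not tested, since peak lists hold no values below their threshold.

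**Figure D5:**
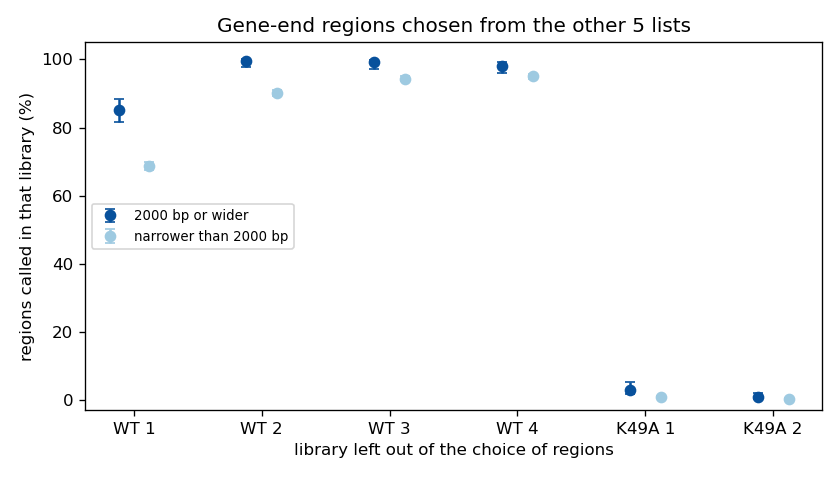
Share of regions (y axis, %) called in a library that was left out when they were chosen, for wide and narrower regions in each of the 6 libraries, with exact 95% binomial intervals. Wide regions were called in 85.1 to 99.6% of cases in the WT libraries and in 3.04 and 0.718% in the K49A libraries.

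With full lists, wide regions were called again more often than narrower ones in each of the 4 WT libraries. The narrower regions reached 68.6, 90.3, 94.3 and 95.0% in WT 1 to WT 4, with a mean of 87.1 ± 12.5% (SD, n = 4), so the wide regions were higher by 8.48 ± 2.98 percentage points (SE). The exact permutation test over sign flips of the 4 differences gave the smallest two-sided p that 4 libraries allow (p = 0.13). Each set of regions was chosen from the other lists, so the 4 differences share lists and are not independent. A wide region has more bases in which any overlap counts. The direction turned when the list left out was cut to its 700 strongest peaks. The narrower regions then had 5.90, 5.13, 6.02 and 6.57% in WT 1 to WT 4, above the wide ones in each, and the difference was -2.97 percentage points (two-sided p = 0.13 by the same exact permutation test, again as low as it can go). From peaks that reached a −log10 p of 5, WT 4 had 87.5% of wide and 88.3% of narrower regions, and the other 3 WT libraries kept the first direction. Measured as the share of its length covered in the list left out, the wide regions had 52.2 ± 15.1% and the narrower ones 56.0 ± 15.6% (SD, n = 4 each), a difference of -3.81 ± 2.86 percentage points (SE), which was within the spread between libraries (exact permutation test, two-sided p = 0.25). Widths of 3000 bp or more turned its direction, to 0.879.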

How the data were processed

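Mononucleosome-sized DNA of mouse sperm was sequenced after MNase digestion in 4 WT and 2 K49A libraries, grouped and numbered by the sample titles. The deposited files are 1 list of broad peaks per library. Per the submitters' processing notes, FastQC, BWA, Picard, SAMtools and MACS2 were used with build mm10. Versions, settings and any input control were not given in the sources used here. In the authors' deposited lists each peak has a fold enrichment (a ratio), a −log10 p, a −log10 q and a score. The score column was deposited too and was not used. A peak's fold and p are the authors' own and were used only to describe or filter peaks within a list. The lists hold no counts, so depth and its precision are unknown beyond list length.

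Peaks were merged, and placed against 21887 protein-coding genes on chromosomes 1 to 19, X and Y of a RefSeq table for GRCm38.p6. That table has no strand, which was taken from a RefSeq promoter table where it held the gene. Scripts used Python 3.11.15, NumPy 2.4.6, pandas 2.3.3 and SciPy 1.17.1. On simulated lists over 600 genes, the script found 100 of 100 regions made to meet the rule. Groups were compared over libraries by exact permutation. For WT against K49A the labels were permuted without choosing the regions again, so those p values cannot decide whether the genotypes differ. For wide against narrower regions the differences of the libraries rest on shared lists and are not independent. The labels do not tie libraries to animals, so a p covers only how these libraries vary, which may be technical.

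The regions and the gene lists were chosen with earlier results of these data known. Genes named were the 10 widest regions, the 10 with the highest mean fold, the 5 with most gene ends, 5 just inside and 5 just outside the width limit, those at up to 3 of the widest regions per list, and the 3 highest and 3 lowest promoters by CpG ratio. Other genes of a list were named to complete its count, and further genes were chosen after their values were seen. Alternatives covered width, window, merging gap, peak thresholds, list length, cover and each library left out. Composition of all promoters was not compared, because the table covered too few of the genes. Some genes and 1 gene list are not reported here.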

Additional observations from a re-analysis of the deposited data

Results flagged for a closer look

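In WT 1 the fold of the strongest peak at Arid1b was 3.94, and the other 3 WT libraries had 2.93, 2.97 and 2.94. At Wnt1 it was 3.01 in WT 1 against 2.42, 2.35 and 2.43. Both values stood far from the other 3 by the gap to the nearest library as a share of the range. The share of wide regions called again in a list left out was 85.1% in WT 1 against 98.2 to 99.6% in the other WT libraries, and stood apart in the same way. These were 3 of 29 groups of 4 libraries checked, where chance gives about 1 in 20.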

How the results depend on the processing

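The number of wide regions was the value that moved most. It was 1486 with a width of at least 1500 bp, 10 with 3000 bp, 116 with a −log10 p of at least 5, 158 with a −log10 q of at least 2, 270 where each WT list had to cover a share of 0.25, and 1 with lists of 700 peaks. It was 390 and 438 with windows of 500 and 2000 bp and 455 with gaps of up to 200 bp merged. Leaving out 1 library at a time gave 239 to 451.

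The difference between WT and K49A in regions called again was 93.3 and 92.7 percentage points at 1500 and 3000 bp, 80.6 from peaks that reached a −log10 p of 5, and 92.3 to 97.1 with 1 library left out. Only lists of 700 peaks, at 1.30, made the groups overlap. With the replicate number as a block it was 90.5 (82.1 and 98.9 in the pairs, where 0.5 is the smallest two-sided p of an exact permutation test). The labels do not say what a shared number means. The deposited files' own names put K49A 2 with WT 4 instead of WT 2, and the blocked value is then 89.8, an alternative chosen after seeing the data. Which pairing is right is unknown.

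The difference between wide and narrower regions in calls was 5.79 to 10.2 percentage points, and that in cover -5.32 to -1.02, with 1 library left out. The first was 9.19 and 9.64 at 1500 and 3000 bp and 7.33 from peaks with a −log10 p of 5 or more (exact permutation test, p = 0.25), and it reversed to -2.97 with lists of 700 peaks, an alternative also chosen after seeing the data. The second was -2.63 with those lists and reversed to 0.879 at 3000 bp. The median fold was 2.81 to 2.91.

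Counts of the gene lists were recomputed in alternatives chosen after seeing the data. At 1500 bp they were 9 for Klf, Sp, Egr and Zic, 17 for axon guidance, 23 for Sox to forkhead and 40 for signalling genes, beside 7.48% of all genes, and from peaks with a −log10 p of 5 or more they were 2, 3, 2 and 4. With 1 WT library left out they were 5 to 7, 5 to 10, 7 to 12 and 9 to 16. Promoter composition was not run.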

Other observations

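Several gene families had more than 1 member at a wide region. These families were picked after the regions were seen, so the counts are a description only. Those at wide regions included Ppargc1a and Ppargc1b, coactivators of mitochondrial gene programmes, Trib1 and Trib2 of 3 Tribbles pseudokinase genes, with Trib3 at a narrower region, and Adra2a and Adra2c of 3 alpha-2 adrenergic receptor genes. Nrg2 and Nrg3 of 4 neuregulin genes, C1ql2 and C1ql3 of 4 C1q-like genes and Elavl1 and Elavl3 of 4 Elav-like genes followed the same pattern. Eph receptors had 4 of 14 genes at wide regions, Epha2, Epha5, Epha7 and Ephb2, and 2 at narrower ones. Adenylate cyclases had Adcy2 and Adcy8 of 10 at wide regions and 5 at narrower ones.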
